A study of Homo sapiens with 16 samples.

Results

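Homing to the bone marrow and adhesion within it were followed through 10 genes in multiple myeloma (MM) cells treated with an EZH2 inhibitor, a G9a inhibitor or both. The genes were the chemokine receptors CXCR4, CXCR3, CCR2, CCR7 and CCR10, the integrin chains ITGA4, ITGB1 and ITGAL, and the adhesion molecules SELPLG and CD44. They were taken by gene name from the array annotation, where 16 of 50599 probes (36337 gene names) carried one of these names. All 10 genes were tested in RPMI-8226, and 9 of them in MM.1S, where CCR7 was not well above background on any array.

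The array series held 16 arrays from 2 human MM cell lines. Cultures of RPMI-8226 or of MM.1S, each a single line, received DMSO (the vehicle), GSK126 at 1 µM, UNC0638 at 1 µM, or GSK126 + UNC0638 at 1 µM each, and RNA was taken after 6 days. GSK126 inhibits EZH2, the enzyme that methylates lysine 27 of histone H3, and UNC0638 inhibits G9a, which methylates lysine 9; both marks go with gene silencing. Each of the 8 groups held 2 arrays described as biological replicates, so the p-values rest on the spread between 2 arrays per group.

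Plasma cells follow CXCL12, which marrow stromal cells release and CXCR4 senses, and are held in the marrow when the integrin built of the ITGA4 and ITGB1 chains binds VCAM1 and fibronectin. The ITGAL chain forms LFA-1, which binds ICAM1, SELPLG is the ligand of P-selectin that lets cells roll on vessel walls, and CD44 binds hyaluronan in the matrix. The other chemokine receptors direct leukocytes to inflamed tissue (CXCR3, CCR2), to lymph nodes (CCR7) or to skin and mucosa (CCR10).

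All 9 plasma cell and myeloma markers examined were well above background on all arrays of both lines, and the B cell genes PAX5 and CD22, which plasma cells shut off, were on none. MS4A1, another B cell gene, was above background on 5 of 8 RPMI-8226 arrays, with levels of -6.26 and -6.15 with DMSO and 0.25 and -0.80 with the combination, and on the 2 combination arrays of 8 in MM.1S, and its part in the results was not tested. Between 46.5% and 52.8% of spots per array were well above background. A level here is the log2 intensity of a probe minus the 75th percentile of its array, and levels are compared only for the same probe. A gene was called where the adjusted p (limma, Benjamini-Hochberg over all probes of the fit) was under 0.05. The median absolute difference between the 2 arrays of a group was 0.15 to 0.26 in RPMI-8226 and 0.13 to 0.15 in MM.1S. Same-numbered RPMI-8226 arrays deviated from their group means together, and the number went with the slide row. The main fit held no block, so the value with the replicate number as a block is given where it changes a call.

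**Figure D1:**
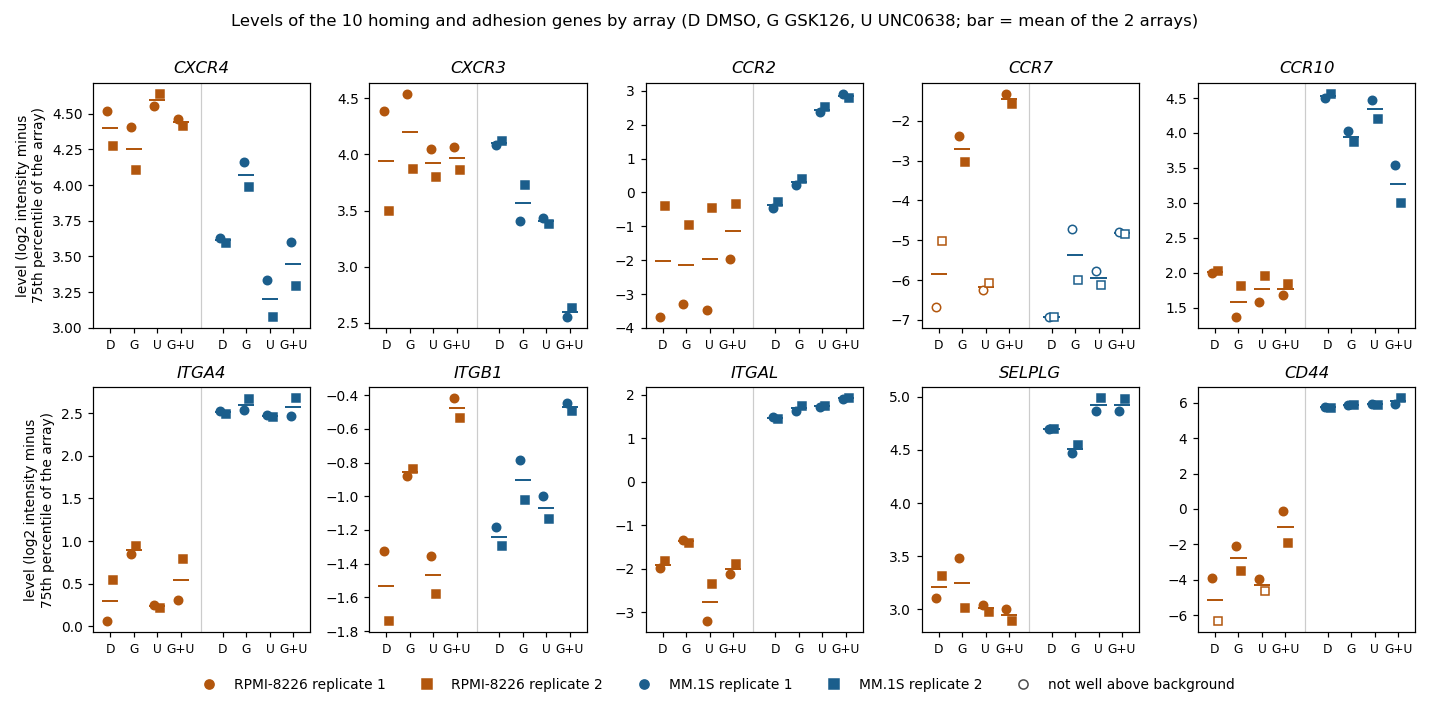
Level of each of the 10 genes on every array (y axis, log2 intensity minus the 75th percentile of the array) under DMSO (D), GSK126 (G), UNC0638 (U) and GSK126 + UNC0638 (G+U), with circles for replicate 1, squares for replicate 2, bars at the mean and open symbols where the probe was not well above background. CCR2 climbs from DMSO to the combination in MM.1S, CCR7 has filled symbols only in the RPMI-8226 groups given GSK126, and CD44 lies between 5.73 and 6.27 in MM.1S and below 0 in RPMI-8226.

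CXCR4, the receptor for CXCL12, was not called against DMSO under any treatment in either line. In RPMI-8226 cells its level was 4.52 and 4.28 with DMSO, 4.40 and 4.10 with GSK126, 4.55 and 4.64 with UNC0638, and 4.46 and 4.42 with GSK126 + UNC0638. The GSK126 and combination arrays overlapped those of DMSO, and both UNC0638 arrays lay above them. The change with the combination was 0.04 (95% confidence interval -0.35 to 0.43).

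In MM.1S cells the CXCR4 level was 3.63 and 3.59 with DMSO, 4.16 and 3.99 with GSK126, 3.33 and 3.08 with UNC0638, and 3.60 and 3.29 with the combination. The single agents lay on opposite sides of DMSO without overlap, GSK126 by 0.46 (SE 0.14, limma adjusted p = 0.105) and UNC0638 by -0.41 (SE 0.14, adjusted p = 0.0792), and neither was called. The combination minus GSK126 was -0.63 (SE 0.14, adjusted p = 0.0190). That call was lost without GSK126 replicate 1 (adjusted p = 0.0911), without combination replicate 2 (adjusted p = 0.0821) and with quantile normalization (adjusted p = 0.0795).

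CCR2, the receptor for the monocyte attractant CCL2, had the largest change of the 9 genes tested in MM.1S. Its level there was -0.45 and -0.29 with DMSO, 0.22 and 0.40 with GSK126, 2.38 and 2.52 with UNC0638, and 2.91 and 2.79 with GSK126 + UNC0638. The 4 groups did not overlap and ran in that order. CCR2 rose 7.03-fold with UNC0638 (log2 change 2.81, SE 0.11, limma adjusted p = 2.98e-04) and 9.31-fold with the combination (3.22, SE 0.11, adjusted p = 8.38e-05), and both calls held in all 18 alternatives run.

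With GSK126 alone CCR2 rose 1.60-fold in MM.1S (0.68, SE 0.11, adjusted p = 0.0248), a call lost without either DMSO array or either GSK126 array (adjusted p up to 0.107). The combination exceeded GSK126 by 2.54 (adjusted p = 3.33e-04), and its difference of 0.40 from UNC0638 was not called (95% confidence interval 0.14 to 0.67, adjusted p = 0.0624). A second CCR2 probe, not well above background with DMSO, was at least 4.83-fold higher with UNC0638 (adjusted p = 0.00343) and at least 8.09-fold higher with the combination (adjusted p = 4.97e-04). It passed the filter through the UNC0638 and combination groups, so that against DMSO it could be called higher alone. Its calls are no separate test of the rise. CCR2 is a monocyte gene, and of the 3 monocyte and macrophage markers CSF1R was not above background on any MM.1S array. The log2 of their summed level lay between -0.21 and -0.18 with DMSO, -0.89 and -0.65 with GSK126, 0.65 and 0.83 with UNC0638 and 0.41 and 0.55 with the combination. CD14 lay between -3.20 and -2.75 on the MM.1S arrays and CD68 between -1.36 and 0.72, so the sum there is mostly CD68. The part of these markers in the result was not tested.

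In RPMI-8226 cells CCR2 differed more between replicates than between treatments. Its level was -3.67 and -0.39 with DMSO, -3.29 and -0.96 with GSK126, -3.46 and -0.47 with UNC0638, and -1.96 and -0.33 with the combination. Replicate 2 was above replicate 1 in all 4 groups, by 1.64 to 3.28, and the groups overlapped. Against the DMSO array of the same number the combination array was higher by 1.71 in replicate 1 and by 0.06 in replicate 2. The response in RPMI-8226 minus that in MM.1S was -2.33 for the combination (SE 1.66, adjusted p = 0.393) and -2.75 for UNC0638 (SE 1.66, adjusted p = 0.423), and with the replicate block both were called (adjusted p = 0.0127 and 0.0190).

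CXCR3, the receptor for the interferon-induced chemokines CXCL9 and CXCL10, fell in MM.1S. Its level there was 4.08 and 4.12 with DMSO, 3.40 and 3.73 with GSK126, 3.43 and 3.38 with UNC0638, and 2.55 and 2.63 with GSK126 + UNC0638. All treated arrays lay below both DMSO arrays, and the combination arrays lay lowest. The change was -0.70 with UNC0638 (SE 0.12, limma adjusted p = 0.0101) and -1.51 with the combination (SE 0.12, adjusted p = 3.77e-04), a decrease of 2.84-fold that held in all 18 alternatives. The UNC0638 call was lost without DMSO replicate 2 (adjusted p = 0.0513) or UNC0638 replicate 2 (adjusted p = 0.0547), and the difference of -0.54 with GSK126 was not called (adjusted p = 0.0517).

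CXCR3 was lower with the combination than with each agent, with a log2 difference of -0.97 from GSK126 (limma adjusted p = 0.00305) and of -0.81 from UNC0638 (adjusted p = 0.0182). The second of these was lost without any 1 of the 4 arrays it compares (adjusted p up to 0.0912). In RPMI-8226 the levels were 4.39 and 3.50 with DMSO, 4.54 and 3.87 with GSK126, 4.05 and 3.80 with UNC0638, and 4.07 and 3.86 with the combination. The DMSO arrays enclosed both UNC0638 and both combination arrays, and the combination change was 0.02 (95% confidence interval -0.80 to 0.84). The response differed between the lines by 1.53 (SE 0.40, adjusted p = 0.0316), a call lost in 7 of 16 fits without an array (adjusted p up to 0.0881). A second CXCR3 probe, annotated to another transcript of the gene, gave -1.33 in MM.1S (SE 0.12, adjusted p = 4.86e-04) and -0.05 in RPMI-8226. Whether that probe reads the annotated transcript alone was not tested. The bases of this second probe are printed because it repeats the fall. It lies at chrX:70836857-70836916 on GRCh37, minus strand.
CXCR3 second probe: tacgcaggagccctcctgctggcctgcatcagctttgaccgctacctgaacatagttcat

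CCR10, the receptor for the epithelial chemokines CCL27 and CCL28, fell in MM.1S with the combination. The MM.1S levels were 4.50 and 4.56 with DMSO, 4.02 and 3.87 with GSK126, 4.47 and 4.20 with UNC0638, and 3.55 and 3.0 with GSK126 + UNC0638. The combination arrays lay below all others of the line. The decrease was 2.38-fold (log2 change -1.25, SE 0.19, limma adjusted p = 0.00285) and held in all 18 alternatives. The differences of -0.58 with GSK126 (adjusted p = 0.120) and -0.19 with UNC0638 (adjusted p = 0.495) were not called.

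The CCR10 difference of the combination was -0.67 from GSK126 (limma adjusted p = 0.0399) and -1.06 from UNC0638 (adjusted p = 0.0276), and each call was lost in 7 of the 8 fits without an array (adjusted p up to 0.151 and 0.123). In RPMI-8226 the levels were 1.99 and 2.02 with DMSO, 1.37 and 1.80 with GSK126, 1.58 and 1.95 with UNC0638, and 1.69 and 1.84 with the combination. All 6 treated arrays lay below both DMSO arrays, and no treatment was called (-0.25 for the combination, adjusted p = 0.441). The response to the combination differed between the lines by 1.01 (SE 0.30, adjusted p = 0.0498), which was lost in 13 of 16 fits without an array (adjusted p up to 0.162).

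CCR7, which guides lymphocytes to lymph nodes, was well above background in the RPMI-8226 groups given GSK126 and in no other group. In RPMI-8226 its level was -6.67 and -5.01 with DMSO, -2.39 and -3.04 with GSK126, -6.26 and -6.07 with UNC0638, and -1.32 and -1.58 with GSK126 + UNC0638. The GSK126 and combination arrays lay above all others, and the gene entered the test through those groups. CCR7 was at least 7.00-fold higher with the combination than with DMSO (fitted log2 change 4.39, SE 0.51, limma adjusted p = 0.00420), a call that held in all 17 alternatives that kept the probe, with a fitted change of 1.47 under normexp background correction.

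Against UNC0638 the combination was at least 7.72-fold higher in CCR7 (limma adjusted p = 0.00698), a call lost without combination replicate 1 (adjusted p = 0.0609). GSK126 alone was at least 2.92-fold above DMSO (fitted 3.12, SE 0.51), which was not called without a block (adjusted p = 0.0736) and was with the replicate block (adjusted p = 0.0479). The combination differed from GSK126 by 1.26 (SE 0.51, adjusted p = 0.262). T cells also carry CCR7, and of the 3 T cell markers CD3D and CD2 were above background on all RPMI-8226 arrays and CD3E on 4 of 8. The log2 of their summed level lay between -2.10 and -1.34 with DMSO, -0.62 and 0.16 with GSK126, 0.36 and 0.40 with UNC0638 and 2.57 and 2.67 with the combination. CD3D lay between -2.67 and 2.43 on the RPMI-8226 arrays, CD2 between -4.15 and -0.41 and CD3E between -6.66 and -1.47. The combination sum is therefore mostly CD3D. The part of these markers in the result was not tested, and in bulk RNA more cells of a type and more RNA per cell cannot be told apart.

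ITGB1, the beta 1 chain that pairs with ITGA4 and other alpha chains, was the one gene of the 9 tested in both lines that was called with the combination in both in the same direction. In RPMI-8226 its level was -1.33 and -1.74 with DMSO, -0.88 and -0.84 with GSK126, -1.36 and -1.58 with UNC0638, and -0.42 and -0.54 with GSK126 + UNC0638. The UNC0638 arrays lay inside the DMSO range and the combination arrays above all others. Stromal cells also carry ITGB1, and of 4 stroma and fibroblast markers COL1A1, COL1A2 and LUM were each above background on 2 of 8 RPMI-8226 arrays and on none of MM.1S. The remaining marker, CXCL12, was above background on all 8 RPMI-8226 arrays, at 0.23 to 2.23, and on 6 of 8 in MM.1S. COL1A1, COL1A2 and LUM reached at most -3.67, -2.49 and -2.36 in RPMI-8226, so the sum there is mostly CXCL12. The log2 of the summed level of the 4 lay between 0.38 and 1.22 with DMSO, 1.36 and 2.24 with GSK126, 0.29 and 1.03 with UNC0638 and 1.5 and 2.30 with the combination in RPMI-8226, and between -4.20 and -4.13 with DMSO and -2.78 and -2.63 with the combination in MM.1S, and their part was not tested. The rise of ITGB1 with the combination was 2.08-fold (log2 change 1.05, SE 0.18, limma adjusted p = 0.0165). It was lost without DMSO replicate 2 (adjusted p = 0.0583), combination replicate 1 (adjusted p = 0.0982) or combination replicate 2 (adjusted p = 0.0539), and the difference of 0.68 with GSK126 was not called (SE 0.18, adjusted p = 0.246).

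MM.1S cells had ITGB1 levels of -1.18 and -1.29 with DMSO, -0.78 and -1.02 with GSK126, -1.0 and -1.14 with UNC0638, and -0.45 and -0.49 with the combination. Again the combination arrays lay above all others. The rise was 1.70-fold (0.77, SE 0.11, limma adjusted p = 0.00215) and held in all 18 alternatives. The combination exceeded GSK126 by 0.43 (adjusted p = 0.0266) and UNC0638 by 0.60 (adjusted p = 0.0280), calls lost in 3 and 4 of 8 fits without an array (adjusted p up to 0.115 and 0.108). Over UNC0638 in RPMI-8226 the excess was 0.99 (adjusted p = 0.0403), lost in 6 of 8 (adjusted p up to 0.230). The responses of the lines to the combination differed by 0.29 (95% confidence interval -0.19 to 0.76), which was not called. A single probe, spotted 10 times per array with a median SD between spots of 0.10, carries this result and is printed for that reason; it lies at chr10:33200507-33200566 on GRCh37, minus strand.
ITGB1 probe: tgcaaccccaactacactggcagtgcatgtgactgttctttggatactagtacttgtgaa

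ITGA4, the alpha 4 chain, was called with no treatment in either line. Its level lay between 0.06 and 0.94 on the RPMI-8226 arrays and between 2.46 and 2.68 on the MM.1S arrays. The combination change was 0.07 in MM.1S (95% confidence interval -0.18 to 0.31) and 0.25 in RPMI-8226 (-0.29 to 0.78). With GSK126 in RPMI-8226 the arrays at 0.84 and 0.94 lay above the DMSO arrays at 0.06 and 0.54, a difference of 0.59 that was not called (SE 0.22, limma adjusted p = 0.416). The other 2 ITGA4 probes were not called against DMSO either.

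ITGAL, the alpha chain of LFA-1, rose with the combination in MM.1S. The levels were 1.5 and 1.44 with DMSO, 1.63 and 1.74 with GSK126, 1.71 and 1.75 with UNC0638, and 1.91 and 1.92 with GSK126 + UNC0638. All treated arrays exceeded DMSO, and the combination exceeded the rest. T cells carry ITGAL too, and of the T cell markers CD3D and CD2 were above background on all 8 MM.1S arrays and CD3E on 5. The log2 of their summed level there lay between -2.17 and -1.97 with DMSO, -2.14 and -1.79 with GSK126, -0.51 and -0.22 with UNC0638 and -0.49 and -0.38 with the combination. CD2 lay between -3.28 and -0.66 on these arrays, CD3D between -4.00 and -3.21 and CD3E between -5.06 and -2.42. The sums of the groups given UNC0638 are therefore mostly CD2, and the part of these markers was not tested. The rise of ITGAL was 1.36-fold (0.45, SE 0.08, limma adjusted p = 0.00468) and held in all 18 alternatives. In RPMI-8226 the levels were -1.99 and -1.84 with DMSO, -1.34 and -1.40 with GSK126, -3.21 and -2.35 with UNC0638, and -2.13 and -1.89 with the combination. There GSK126 lay above and UNC0638 below DMSO without overlap, by 0.54 (SE 0.28, adjusted p = 0.548) and -0.87 (SE 0.28, adjusted p = 0.361), and neither was called.

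SELPLG, the P-selectin ligand, lay between 2.89 and 3.48 on all RPMI-8226 arrays and was not called there. In MM.1S its level was 4.7 and 4.7 with DMSO, 4.47 and 4.54 with GSK126, 4.86 and 4.99 with UNC0638, and 4.86 and 4.98 with GSK126 + UNC0638. GSK126 lay below DMSO and both groups given UNC0638 above it, by -0.19, 0.23 and 0.22, none of which was called (limma adjusted p = 0.215, 0.0994 and 0.0726). The combination exceeded GSK126 by 0.42 (SE 0.09, adjusted p = 0.0142), a call lost without GSK126 replicate 1 or combination replicate 2 (adjusted p = 0.0719 and 0.0662). A second SELPLG probe gave 0.39 (SE 0.09, adjusted p = 0.0214).

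CD44, the hyaluronan receptor, separated the lines more than any other of the 10 genes on the probe that represents it. In MM.1S its level was 5.78 and 5.73 with DMSO, 5.88 and 5.86 with GSK126, 5.95 and 5.89 with UNC0638, and 5.92 and 6.27 with GSK126 + UNC0638. Treated arrays all lay above DMSO, and no change was called (0.34 for the combination, SE 0.13, limma adjusted p = 0.0601). In RPMI-8226 the levels were -3.92 and -6.34 with DMSO, -2.08 and -3.50 with GSK126, -3.96 and -4.66 with UNC0638, and -0.09 and -1.95 with the combination. Replicate 2 of DMSO and replicate 2 of UNC0638 were not well above background, so CD44 entered the test there through the GSK126 and combination groups, and the combination arrays lay above all others of the line.

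With the combination CD44 was called higher in RPMI-8226 (fitted log2 change 4.11, SE 0.95, limma adjusted p = 0.0394), and since 1 DMSO array was not above background the fitted change is no measured fold. Only the DMSO replicate 1 array could be left out without losing the call (fitted change 5.32, adjusted p = 0.0358): without any other RPMI-8226 array the change was 2.90 to 5.04 and the adjusted p up to 0.194. Quantile normalization, no filter and only the groups compared in the fit also lost it (adjusted p = 0.0589, 0.0848 and 0.0895), normexp correction kept it at 1.64, and the replicate block gave an adjusted p of 0.00196. The difference of 2.34 with GSK126 (adjusted p = 0.451) and the excess of 3.29 over UNC0638 (adjusted p = 0.141) were called with the block alone (adjusted p = 0.0463 and 0.00802).

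The response of CD44 to the combination was 3.77 higher in RPMI-8226 than in MM.1S (SE 1.09, limma adjusted p = 0.0474), a call lost in 12 of 16 fits without an array (adjusted p up to 0.128). A second CD44 probe, annotated to another transcript of the gene, gave 0.26 in RPMI-8226 (SE 0.31, adjusted p = 0.595) and was not called. The T cell markers described beside CCR7 (a sum mostly of CD3D in that group) and the stroma markers described beside ITGB1 (a sum made mostly of CXCL12) had their highest summed level in the same combination group. The stroma sum overlapped there with that of GSK126, and the part of these markers was not tested.

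Counted by comparison, none of 10 genes was called in RPMI-8226 with GSK126 (0.599% of all probes tested were) or with UNC0638 (0.638%). With the replicate block CCR7 and CD44 were called with GSK126 (limma adjusted p = 0.0479 and 0.0463), where 491 of 23196 probes were called. In the fit without a block, CCR7, CD44, ITGA4 and ITGB1 passed an unadjusted limma p under 0.05 with GSK126, and ITGAL with UNC0638. The percentages given here are for adjusted p, and no share of all probes is given for the unadjusted threshold. The combination called 3 of 10, all higher (CCR7, CD44 and ITGB1), beside 12.6% of all probes (7.1% higher). CCR7 and CD44 entered the RPMI-8226 test through the groups in which they were high, so that they could be called in 1 direction alone, and with the probes above background on all arrays the count was 1. It called none against GSK126 (2.57% of probes), where CCR7 alone had an unadjusted p under 0.05, and 2 of 10 against UNC0638 (CCR7 and ITGB1, both higher, with 3.38% of probes called and 2.7% higher), of which CCR7 was above background on no UNC0638 array.

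In MM.1S, 1 of 9 genes was called with GSK126, CCR2, against 7.48% of probes (5.06% higher). UNC0638 called 2 of 9, 1 in each direction, against 29.5% of probes (12.8% higher and 16.7% lower). The combination called 5 of 9, 3 higher and 2 lower, against 53.6% of probes (22.2% higher and 31.5% lower), so that the share among these genes lay near that of all probes. Against GSK126 it called 6 of 9, 3 in each direction (36.8% of probes, 15.3% higher and 21.5% lower), and against UNC0638 3 of 9, ITGB1 higher and CXCR3 and CCR10 lower (13% of probes, 6.02% higher and 7.02% lower). The median change with the combination was 0.22 over the 9 genes and -0.13 over all genes tested in MM.1S, and 0.14 over the 10 genes and -0.13 over all genes in RPMI-8226. The comparisons of a line share their DMSO arrays.

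**Figure D2:**
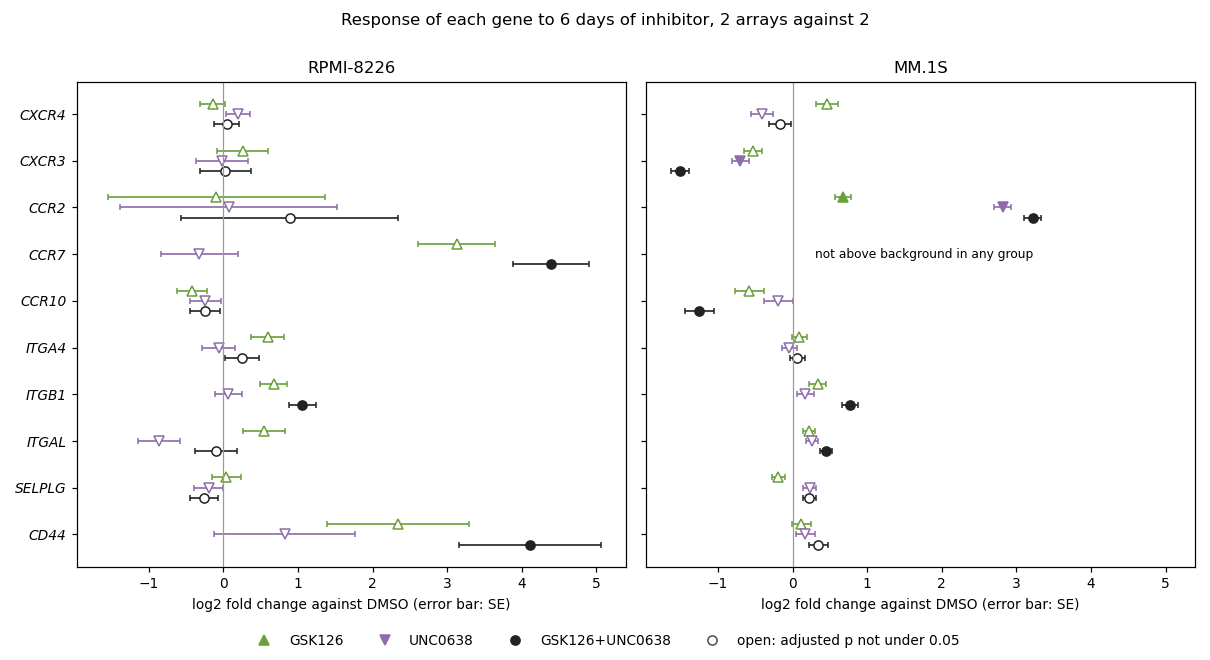
Log2 fold change against DMSO (x axis, error bars are SE) of each of the 10 genes with GSK126 (green triangles), UNC0638 (purple triangles) and GSK126 + UNC0638 (black circles), filled where the limma adjusted p was under 0.05. The combination has 3 filled points in RPMI-8226 (CCR7 4.39, CD44 4.11 and ITGB1 1.05) and 5 in MM.1S, of which CXCR3 (-1.51) and CCR10 (-1.25) lie below 0.

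Several of these calls also ended under another setting of the fit. Without a filter on dim probes the MM.1S combination kept 2 of its 6 calls against GSK126 (CCR2 and CXCR3; CXCR4, CCR10, ITGB1 and SELPLG had limma adjusted p = 0.0615, 0.110, 0.0845 and 0.0537) and none of 3 against UNC0638 (CXCR3 0.0625, CCR10 0.0861 and ITGB1 0.0918, adjusted p). The GSK126 call of CCR2 in MM.1S ended without the filter (adjusted p = 0.0910) and with the mean over its probes. In RPMI-8226 the ITGB1 calls ended when the fit held the compared groups alone, against DMSO (adjusted p = 0.0610) and against UNC0638 (adjusted p = 0.0640).

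The scaling of the arrays set the sign of small changes. With the 75th percentile taken over the probes detected on all arrays, the median change of all genes with the combination moved by 0.21 in MM.1S and by 0.15 in RPMI-8226, that with UNC0638 in MM.1S by 0.11, and those of the combination against an agent by up to 0.13. The calls of the combination in MM.1S were then 7724 higher and 5028 lower, in place of 5565 higher and 7899 lower, and in RPMI-8226 2007 higher and 608 lower, in place of 1648 higher and 1264 lower. In RPMI-8226 the split turned to mostly lower with normexp (1621 higher and 1745 lower), quantile normalization (1459 higher and 1497 lower), the stricter filter (939 higher and 1299 lower), the replicate block (2412 higher and 2494 lower) and the intensity-dependent prior (1938 higher and 2280 lower). With UNC0638 in MM.1S they were 4232 higher and 2490 lower, in place of 3204 higher and 4193 lower, and with GSK126 1711 higher and 320 lower, in place of 1269 higher and 608 lower. The combination calls of CCR2, CXCR3, CCR10, ITGB1 and ITGAL in MM.1S held under that scaling, quantile normalization and normexp. The uncalled change of CXCR4 there, -0.17, became 0.05 with that percentile and 0.15 with quantile normalization.

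Under DMSO, 6 of the 10 genes differed between the lines, 1 higher and 5 lower in RPMI-8226, where 57.7% of all probes were called (28.9% higher and 28.8% lower). CXCR4 was higher in RPMI-8226 by 0.79 (SE 0.15, limma adjusted p = 0.00138). CD44 differed by -10.88 (adjusted p = 7.52e-07, with 1 RPMI-8226 array above background) and ITGAL by -3.38 (adjusted p = 4.00e-07). The CD44 value is no measured fold, and over 25 alternatives it ranged from -12.09 to -6.13. A second CD44 probe, above background on all arrays, had DMSO means of -3.08 in RPMI-8226 and -1.71 in MM.1S. CCR10 differed by -2.52, ITGA4 by -2.21 and SELPLG by -1.49 (adjusted p = 2.57e-06, 2.38e-06 and 1.09e-05). ITGB1 and CXCR3, at -0.29 and -0.16, were not called (adjusted p = 0.122 and 0.654), and CCR2 at -1.66 was called with the replicate block alone (adjusted p = 0.253 and 0.00246). Each line was hybridized on a slide of its own, so line and slide cannot be told apart in these differences. Normexp correction moved the median difference of all genes between the lines by 0.14.

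Ordered by mean level over the 8 groups, CD44, ITGA4, ITGAL, CCR10 and SELPLG had the 4 MM.1S groups above the 4 RPMI-8226 groups with no overlap between the lines. No share of all probes with such a separation is given, and 57.7% of all probes differed between the lines under DMSO. Line and slide cannot be told apart in this order either. CXCR4 had the RPMI-8226 groups first, with its lowest, GSK126, overlapping GSK126 of MM.1S. ITGB1 had both combination groups first with overlapping ranges, then RPMI-8226 with GSK126, MM.1S with GSK126 and MM.1S with UNC0638, each overlapping the next, then MM.1S with DMSO, and last RPMI-8226 with UNC0638 and with DMSO, which overlapped. CCR2 had the MM.1S combination, UNC0638 and GSK126 groups first without overlap, and below them MM.1S with DMSO overlapped RPMI-8226 with the combination.

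The response to the combination differed between the lines in 3 of the 10 genes (CXCR3, CCR10 and CD44, all higher in RPMI-8226), where 13.1% of all probes were called (6.99% higher). With the replicate block these 3 stayed called and CCR2 was called too (-2.33, limma adjusted p = 0.0127), where 5073 of 26928 probes were called. With the percentile over detected probes CXCR3 alone was called, CCR10 and CD44 having limma adjusted p = 0.0622 and 0.0528, no filter left none of the 3, and normexp gave 1.27 for CD44 (adjusted p = 0.0685). For GSK126 and for UNC0638 none of 10 was called (0.776% and 2.85% of probes). At an unadjusted limma p under 0.05 the GSK126 response of CXCR4 differed by -0.60 (adjusted p = 0.333), and the UNC0638 responses of CXCR4 by 0.61 (adjusted p = 0.177) and of ITGAL by -1.13 (adjusted p = 0.0860). The percentages above are for adjusted p, and no share of all probes is given for the unadjusted threshold.

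RefSeq promoters (GRCh38.p14) were found for 6 of the 10 genes. Genes were ranked by the number of lines called with the combination, ties by the smaller absolute change of the 2 lines. For CCR2 that was its uncalled 0.89 in RPMI-8226. The promoters of ITGB1, CCR2 and CD44, which came first, are shown. Each gives the 250 bases before the transcription start, 5′ to 3′ along the gene, with CG dinucleotides, the sites of DNA methylation, in capitals. They lie at chr10:32958231-32958480 (minus strand), chr3:46353861-46354110 (plus strand) and chr11:35138921-35139170 (plus strand).
ITGB1 promoter: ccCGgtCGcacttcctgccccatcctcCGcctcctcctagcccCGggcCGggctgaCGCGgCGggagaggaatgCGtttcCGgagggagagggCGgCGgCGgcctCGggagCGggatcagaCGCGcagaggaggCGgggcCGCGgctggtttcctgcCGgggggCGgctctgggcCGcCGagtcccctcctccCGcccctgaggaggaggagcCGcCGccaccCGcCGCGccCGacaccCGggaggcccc
CCR2 promoter: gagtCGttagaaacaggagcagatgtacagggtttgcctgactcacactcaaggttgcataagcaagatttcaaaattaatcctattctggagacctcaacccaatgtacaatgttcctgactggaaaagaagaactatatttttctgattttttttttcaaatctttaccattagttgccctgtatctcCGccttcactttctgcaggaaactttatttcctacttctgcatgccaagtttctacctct
CD44 promoter: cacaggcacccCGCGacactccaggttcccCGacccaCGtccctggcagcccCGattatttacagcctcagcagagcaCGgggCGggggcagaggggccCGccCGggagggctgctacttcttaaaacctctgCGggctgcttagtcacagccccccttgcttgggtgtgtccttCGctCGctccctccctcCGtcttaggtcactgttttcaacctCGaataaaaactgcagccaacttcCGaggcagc

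The ITGB1 window held 32 CG dinucleotides, more than 90.5% of the 35116 promoter windows of that length. CD44 held 15 (more than 57.1%) and CCR2 held 2 (more than 14.7%).

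Genes that work with these 10 were counted in 7 lists. With the combination 53.6% of all probes were called in MM.1S (22.2% higher and 31.5% lower) and 12.6% in RPMI-8226 (7.1% higher), and the median change over all genes was -0.13 in each line. A gene not above background on both DMSO arrays passed the filter through a treated group, and how many of these were called higher is given where there were any.

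The chemokines and counter-receptors that the 10 genes meet formed a list of 24 genes. In MM.1S 12 passed the filter on dim probes, and the combination called 8 higher and 1 lower (median change 1.04). Of those called higher, 4 were not above background on both DMSO arrays. In RPMI-8226 13 passed, 3 higher and 2 lower (median 0.17), 1 of the higher ones being such a gene. CXCL9, a ligand of CXCR3, was at least 4.86-fold higher in MM.1S (limma adjusted p = 7.36e-04) and 16.2-fold higher in RPMI-8226 (adjusted p = 5.72e-04). CXCL10, another CXCR3 ligand, rose 2.05-fold and 6.89-fold (adjusted p = 0.00725 and 9.71e-04).

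CCL2, the ligand of CCR2, rose 19.2-fold in MM.1S with the combination (limma adjusted p = 2.69e-04), and in RPMI-8226 its difference of 1.66 was not called (adjusted p = 0.275, difference between the lines -2.60, adjusted p = 0.164). CXCL12, the ligand of CXCR4, was at least 3.13-fold higher in MM.1S (adjusted p = 0.00333), and SPP1, osteopontin, which binds CD44 and integrins, at least 6.28-fold (adjusted p = 4.89e-04). ICAM2 changed by -0.64 and -1.11 (adjusted p = 0.00433 and 0.0183). ICAM1, the main LFA-1 ligand, rose by 1.05 in MM.1S (adjusted p = 0.00219) and changed by -0.80 in RPMI-8226 (adjusted p = 0.0409), and the lines differed (-1.85, adjusted p = 0.00132).

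Of 18 other chemokine receptors 8 passed the filter in MM.1S and 6 rose with the combination (median 1.15), while 6 passed in RPMI-8226 and 1 rose (median -0.21). Among the 6 that rose in MM.1S, 1 was not above background on both DMSO arrays. CCR3, the eotaxin receptor, rose 6.51-fold in MM.1S (limma adjusted p = 2.27e-04) and 4.68-fold in RPMI-8226 (adjusted p = 0.00524). CX3CR1, the fractalkine receptor, was at least 31.6-fold higher in MM.1S (adjusted p = 5.18e-04) and changed by -0.12 in RPMI-8226 without a call (difference between the lines -5.56, adjusted p = 2.81e-04). ACKR4, a scavenging receptor, rose 11.7-fold in MM.1S (adjusted p = 9.00e-05).

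Of 23 other integrin chains 15 passed in MM.1S (7 higher, 2 lower, median 0.51) and 12 in RPMI-8226 (5 higher, 0 lower, median 0.61). In each line 2 of the higher ones were not above background on both DMSO arrays. With both directions counted together the share called in MM.1S was near that of all probes. By direction, more were higher than lower there, where fewer of all probes were higher than lower. ITGAM, the alpha chain of the myeloid integrin Mac-1, rose 12-fold in MM.1S (limma adjusted p = 9.34e-05) and was at least 10.5-fold higher in RPMI-8226 (adjusted p = 0.00426). ITGA7, a laminin-binding chain, rose 1.70-fold and 12.4-fold (adjusted p = 0.0172 and 0.00148), and ITGAV, the vitronectin receptor chain, 2.19-fold and 1.92-fold (adjusted p = 0.00182 and 0.0273). The 3 monocyte and macrophage markers, all above background on every RPMI-8226 array, had a log2 summed level between 0.80 and 1.19 with DMSO and between 2.34 and 2.60 with the combination, and their part was not tested.

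**Figure D3:**
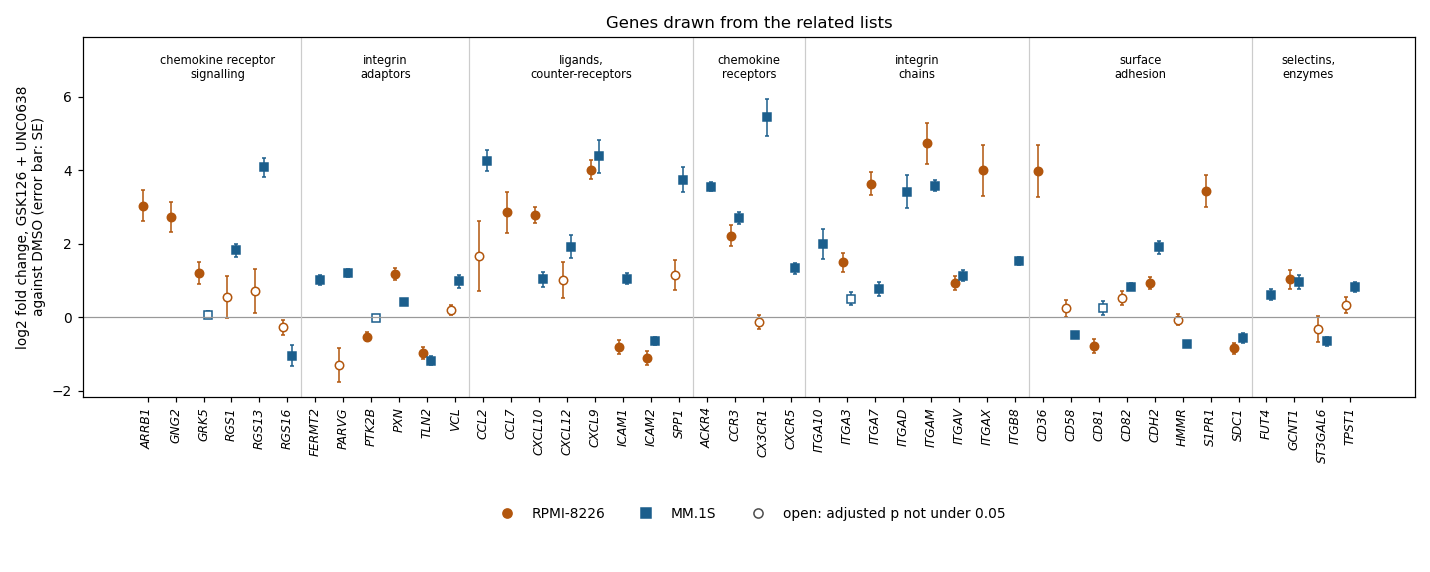
Log2 fold change with GSK126 + UNC0638 against DMSO (y axis, error bars are SE) of genes drawn from the related lists, with brown circles for RPMI-8226, blue squares for MM.1S and open symbols where the limma adjusted p was not under 0.05. ITGAM, CXCL9 and CCR3 are filled above 0 in both lines, ICAM1 is filled on opposite sides of 0, and SDC1, ICAM2 and TLN2 are filled below 0 in both.

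Signalling behind the receptors was represented by 27 genes, of which 24 passed in MM.1S (7 higher, 6 lower) and 26 in RPMI-8226 (3 higher, 0 lower), shares near those of all probes in both lines. Of those called higher, 1 in MM.1S and 2 in RPMI-8226 were not above background on both DMSO arrays. RGS1 and RGS13, which shorten G protein signals, were 3.53-fold and at least 6.18-fold higher in MM.1S (limma adjusted p = 5.34e-04 and 2.32e-04). The arrestin ARRB1 was at least 2.48-fold higher in RPMI-8226 (adjusted p = 0.00767). The lines differed in RGS13 (-3.37, adjusted p = 0.0160) and in ARRB1 (2.46, adjusted p = 0.0108). Integrin adaptors, 21 genes, gave 6 higher and 6 lower of 20 in MM.1S and 1 higher and 2 lower of 19 in RPMI-8226, also near the shares of all probes. PXN, paxillin, rose 1.34-fold and 2.26-fold (adjusted p = 0.00747 and 0.00767), and TLN2, a talin that ties integrins to actin, changed by -1.18 and -0.98 (adjusted p = 8.12e-04 and 0.0177).

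Selectins and the enzymes that build their ligands, 16 genes, gave 6 higher and 2 lower of 13 in MM.1S and 2 higher and 0 lower of 13 in RPMI-8226. With both directions counted together these shares were near those of all probes. By direction, more were higher than lower in MM.1S, where fewer of all probes were higher than lower. Both genes called in RPMI-8226 were not above background on both DMSO arrays. GCNT1, which builds the branched O-glycans that selectins bind, rose 1.94-fold in MM.1S (limma adjusted p = 0.00572) and was at least 1.66-fold higher in RPMI-8226 (adjusted p = 0.0455). TPST1, a tyrosine sulfotransferase that can act on SELPLG, rose 1.77-fold in MM.1S (adjusted p = 0.00326), with a difference between the lines of -0.49, adjusted p = 0.263. Other surface adhesion molecules of myeloma, 23 genes, gave 2 higher and 3 lower of 16 in MM.1S and 3 higher and 2 lower of 18 in RPMI-8226. The share called was below that of all probes in MM.1S and above it in RPMI-8226. In RPMI-8226, 2 of those called higher were not above background on both DMSO arrays. CDH2, N-cadherin, rose 3.76-fold and 1.91-fold (adjusted p = 5.56e-04 and 0.0179), and SDC1, the plasma cell antigen CD138, changed by -0.56 and -0.85 (adjusted p = 0.0173 and 0.0166).

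**Figure D4:**
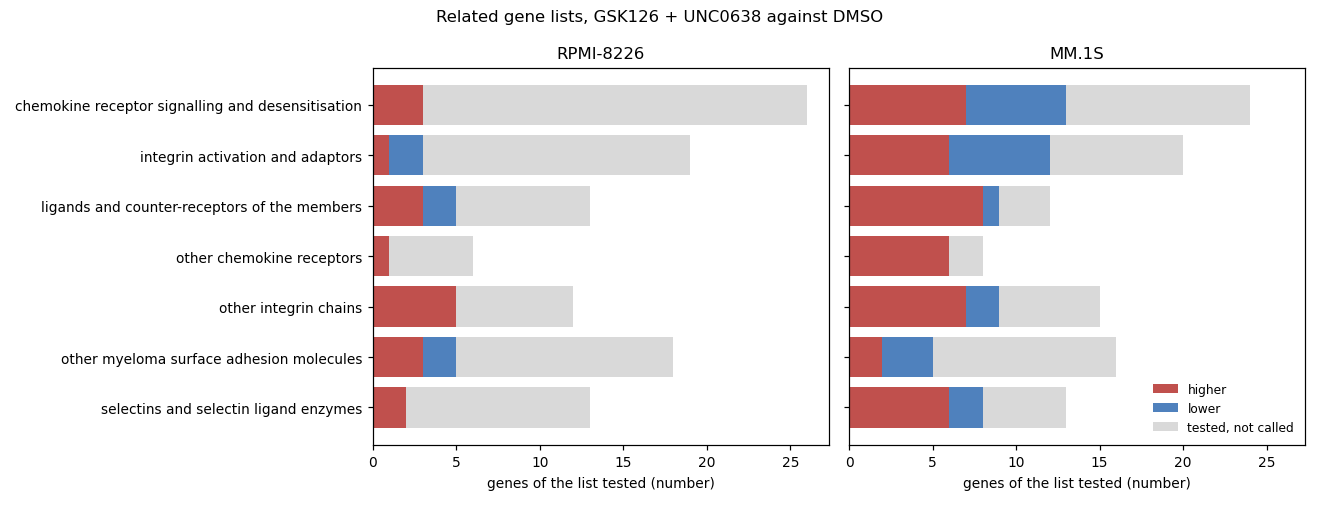
Number of genes tested in each related list (x axis), split into those higher (red), lower (blue) and not called (gray) with GSK126 + UNC0638 against DMSO, in RPMI-8226 and MM.1S. In MM.1S the red part ranges from 2 of 16 other surface adhesion molecules to 6 of 8 other chemokine receptors, beside 22.2% of all probes, and in RPMI-8226 from 1 of 19 integrin adaptors to 5 of 12 other integrin chains, beside 7.1%.

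The gene whose level followed each of the 9 genes most closely over the 16 arrays, after removal of each line's mean, was sought among 12920 genes and is given as a description, since the arrays share treatments and slides. Pearson's r was 0.98 for ITGB1 and LRP12, 0.98 for CD44 and COL5A2, 0.96 for CCR2 and EYA2, and 0.96 for CXCR3 and CCND3. It was 0.95 for CCR10 and ACAA2, 0.92 for SELPLG and ZNF524, 0.91 for CXCR4 and APLN, 0.89 for ITGAL and PLEKHG2, and 0.88 for ITGA4 and SLC2A5. Among the genes themselves ITGB1 and CD44 had an r of 0.81, and CXCR3 and CCR2 one of -0.82.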

How the data were processed

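Total RNA from 16 cultures was hybridized by the authors to Agilent SurePrint G3 Human GE v2 one-color arrays, and the spot intensity values deposited per array came from Agilent Feature Extraction 10.7 (background-subtracted processed signal). The authors' deposited series table held the same intensity values, equal after rounding in 939431 of 939472 spots compared. The study imported its arrays into GeneSpring, which was not used here.

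Spots of a probe were averaged after control spots were left out, log2 intensities were taken minus the 75th percentile of each array, and a probe was kept if both arrays of any 1 group had it well above background (23196 in RPMI-8226, 25100 in MM.1S, 26928 for comparisons between lines). No spot was saturated. limma 3.58.1 (R 4.3.3) was fitted per line over its 4 groups, or over all 16 arrays for comparisons between lines, with empirical Bayes variances, Benjamini-Hochberg adjustment and a threshold of 0.05. A gene with several probes is represented by the probe with the highest mean. Where a group was not above background on either array, the fold is a lower bound against the lowest signal of probes well above background, written as at least.

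Groups came from the sample labels. Replicate numbers were checked for pairing over all probes. Deviations of same-numbered arrays correlated at r = 0.25 to 0.42 in all 6 pairs of RPMI-8226 groups and at 0.08 to 0.22 in MM.1S. The RPMI-8226 numbers were therefore taken to be pairs, but the main fit held no block. All SE, intervals and adjusted p given without mention of a block are unpaired, and the block was run as an alternative. Slide and scan coincided with the line. On both slides each treatment filled 1 column, in the order DMSO, GSK126, UNC0638 and combination, and each replicate number filled 1 row. Treatment and slide column, and replicate number and slide row, cannot be told apart. The 10 genes and the related lists were chosen with earlier results of these data known. From each list the text draws on up to 4 genes called with the combination in both lines in the same direction, up to 3 called in each line alone and up to 2 called in opposite directions, by the size of the change. Some genes are not reported here. The fitting code was tested on simulated data. Alternatives were quantile normalization, normexp (offset 50), no or a stricter filter, a percentile over detected probes, the series table, the replicate block, an intensity-dependent prior, only the groups compared, the mean over probes, and leaving out each array.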

Additional observations from a re-analysis of the deposited data

Results flagged for a closer look

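The response to GSK126 + UNC0638 differed between the lines, by a tested interaction in limma, for 3 of the 10 genes. RPMI-8226 minus MM.1S was 1.53 for CXCR3 (adjusted p = 0.0316), 1.01 for CCR10 (adjusted p = 0.0498) and 3.77 for CD44 (adjusted p = 0.0474). CXCR3 and CCR10 were called lower in MM.1S and not in RPMI-8226, and CD44 was called higher in RPMI-8226 and not in MM.1S. These calls, from the fit without a block, were lost in 7, 13 and 12 of the 16 fits without an array, respectively. With the replicate number as a block the limma adjusted p was 0.00543 for CXCR3, 0.0176 for CCR10 and 0.00179 for CD44. CCR2 was then called too (-2.33, adjusted p = 0.0127).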

How the results depend on the processing

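The number of the 10 genes called moved by over 1.5 times as follows. RPMI-8226 with GSK126, 0 genes, had 2 with the replicate block and 1 with an intensity-dependent prior. RPMI-8226 with the combination, 3, had 1 with only probes above background on all arrays and 1 with only the groups compared, and against UNC0638, 2, it had 1 with quantile normalization, no filter, only bright probes or only those groups. MM.1S with GSK126, 1, had 4 with normexp or the intensity-dependent prior, 2 with only bright probes, 3 with the block, and 0 without a filter, with only the groups compared or with the mean over probes. MM.1S with UNC0638, 2, had 5 with quantile normalization or that prior and 4 with the percentile of detected probes. Against GSK126 the MM.1S combination, 6, had 2 without a filter and 3 with only the groups compared, and against UNC0638, 3, 0 in both. The difference between lines for UNC0638, 0, had 1 with normexp or the block, and for the combination, 3, 1 with the percentile of detected probes and 0 without a filter or with only those groups. Leaving out each array in turn gave counts of 0 to 1, 0 to 0 and 1 to 3 for GSK126, UNC0638 and the combination in RPMI-8226, 0 to 0 and 0 to 2 for the combination against each agent, 0 to 1, 1 to 2, 5 to 6, 2 to 6 and 0 to 2 for the same in MM.1S, 0 to 0, 0 to 1 and 0 to 3 for the differences between lines, and 6 to 8 under DMSO. Changes of sign were seen only in values that were not called. CXCR3 in RPMI-8226 became 0.0117 and 0.0263 with UNC0638 (quantile, detected percentile) and -0.000318 and -0.0145 with the combination (normexp, mean over probes), CCR2 -0.0109 with UNC0638 (normexp), and ITGAL 0.0554 with the combination (detected percentile). In MM.1S CXCR4 became 0.15 and 0.0474 with the combination, and ITGA4 -0.032 with the combination (mean over probes) and 0.0496 and 0.0676 with UNC0638. Without 1 array the RPMI-8226 changes with GSK126 ranged over -1.74 to 1.54 (CCR2), -0.19 to 0.70 (CXCR3), -0.29 to 0.00596 (CXCR4) and -0.19 to 0.27 (SELPLG), those with UNC0638 over -1.57 to 1.71 (CCR2), -0.46 to 0.43 (CXCR3), -0.39 to 2.02 (CD44), -0.30 to 0.17 (ITGA4) and -0.14 to 0.27 (ITGB1), and those with the combination over -0.76 to 2.53 (CCR2), -0.42 to 0.47 (CXCR3), -0.0819 to 0.16 (CXCR4) and -0.22 to 0.028 (ITGAL), and in MM.1S ITGA4 with the combination over -0.0383 to 0.17. The causes were not tested. The number of arrays limits the precision of all of these values.

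With the replicate number as a block, the calls over all probes went from 139 to 491, 148 to 416 and 2912 to 4906 for GSK126, UNC0638 and the combination in RPMI-8226. In MM.1S, where the numbers did not meet the rule for pairs, they went from 1877 to 2453, 7397 to 8631 and 13464 to 14473, and CXCR3 (adjusted p = 0.0489) and CXCR4 (0.0464) with GSK126, CXCR4 with UNC0638 (0.0271) and SELPLG with the combination (0.0446) were then called by limma.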
